A study of Mus musculus with 16 samples.

Results

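The comparison described here set cultured mouse sensory neurons that received a DLK inhibitor followed by nocodazole against neurons that received only the DMSO vehicle at both steps. It addresses how far from the untreated state the transcriptome remained when both agents were present. Libraries were chosen by their treatment label, which gave 8 of the 16 libraries of the series, 4 with both agents and 4 with DMSO. All cultures were embryonic dorsal root ganglion (DRG) neurons of CD1 mice, an outbred stock, grown with nerve growth factor at 50 ng/ml and with fluorodeoxyuridine and uridine, which act against dividing cells. At day 6 in vitro the inhibitor group received GNE3511 at 500 nM, a small-molecule inhibitor of dual leucine zipper kinase (DLK, encoded by Map3k12), and nocodazole at 200 nM was added 15 min later and kept on for 16 h. The DMSO group received vehicle at the same times. The remaining libraries, 4 with the inhibitor alone and 4 with nocodazole alone, were used to place each change. The sources used here do not say whether replicates came from separate cultures or embryos, so the p-values measure the spread between these libraries, which may be technical.

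DLK is a neuronal MAP kinase kinase kinase that activates the kinase JNK after axon injury and after disruption of the cytoskeleton. JNK phosphorylates the transcription factor Jun, whose own gene is among its targets, and dual-specificity phosphatases (DUSPs) remove phosphate from MAP kinases. Nocodazole binds tubulin and depolymerises microtubules, and cells with excess free tubulin degrade tubulin mRNAs. DLK signalling has also been tied to the integrated stress response, in which phosphorylation of eIF2 alpha raises translation of ATF4, an activator of amino acid synthesis, transport and stress genes.

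The 8 libraries held 32188174 to 43321421 counts, and 19156 genes passed the filter on low counts. Replicate 1 with both agents stood apart from its 3 companions. Its tubulin genes had a median log2 CPM (CPM being the count of a gene scaled for library size) 1.15 below the DMSO mean, against 0.31 to 0.38 below it in the other 3 libraries with both agents and 0.90 to 1.29 below it with nocodazole alone. Its mitochondrially encoded share of counts was 1.71%, against 0.865% to 1.09% in replicates 2 to 4 and 0.765% to 1.07% in DMSO. Among the libraries with inhibitor alone, replicate 4 had Jun at 21.2 CPM while replicates 1 to 3 had 0.843 to 1.96 CPM. Results against DMSO are therefore given with and without replicate 1 where its removal ended the call of a gene described here or moved a list's count by more than 1.5 times, and the cause of either library's position was not tested.

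Markers of sensory neurons were abundant in all 8 libraries. Prdm12, a regulator of nociceptor identity, was at 800 to 936 CPM with both agents and 746 to 814 CPM in DMSO, and Pou4f1, a sensory neuron transcription factor, was at 237 to 269 CPM with both agents and 258 to 265 CPM in DMSO. The summed CPM of 7 Schwann cell and satellite glia markers was 26.5 to 87.4 with both agents and 88.4 to 107 in DMSO, nearly all of it from S100b, while Sox10 did not exceed 0.217 CPM. The 6 fibroblast markers summed to 1.4 to 2.45 CPM with both agents and 2.11 to 5.07 CPM in DMSO. The 4 endothelial markers summed to 0.226 to 0.376 CPM with both agents and 0.403 to 0.622 CPM in DMSO, and 4 macrophage markers to 1.33 to 1.83 CPM with both agents and 1.55 to 2.3 CPM in DMSO. Lum, Cdh5, Tie1 and Ptprc were at 0 in at least 1 library of each group, and Cx3cr1 was at 0 in all 4 libraries with both agents. In such bulk RNA, fewer cells of a type and less RNA per cell cannot be told apart.

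Neurons with both agents differed from the vehicle state at many genes, most of them by little. By edgeR's quasi-likelihood test with Benjamini-Hochberg adjustment below 0.05, 1582 genes were higher with both agents than in DMSO (8.26% of those tested) and 1625 were lower (8.48%), together 16.7%. The called genes had a median absolute log2 change of 0.45. At least 2-fold differences were called for 304 genes higher (1.59%) and 219 lower (1.14%). Without replicate 1, 1314 genes were higher (6.75% of the 19479 then tested) and 1334 were lower (6.85%). The libraries of the 2 groups did not overlap for 22.5% of the tested genes, 2078 with all 4 libraries with both agents above the DMSO range (10.8%) and 2234 below it (11.7%).

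The intervals give the size of what could have been missed. For 14652 genes (76.5%) the 95% interval of the log2 change lay inside -1 to 1, which leaves less than a 2-fold difference in either direction, and for 9958 (52.0%) it lay inside -0.58 to 0.58. The interval lay wholly beyond 2-fold for 128 genes (0.668%).

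Set beside the other groups, the same test called 33.9% of genes between both agents and nocodazole alone, 3396 higher (17.7%) and 3098 lower (16.2%), and 0.0835% between both agents and the inhibitor alone, 15 higher (0.0783%) and 1 lower (0.00522%). The inhibitor alone against DMSO gave 13.0%, with 1107 genes higher (5.78%) and 1387 lower (7.24%), and nocodazole alone against DMSO gave 37.5%, with 3556 higher (18.6%) and 3631 lower (19.0%). Without replicate 1 with both agents, the difference from nocodazole alone was called for 3751 genes higher (19.3%) and 3467 lower (17.8%). These comparisons share libraries, and for every gene the log2 change of both agents against DMSO is the sum of the inhibitor's change and of the nocodazole change measured within the inhibitor. The root mean square difference in log2 CPM between libraries was 0.620 ± 0.0729 between both agents and DMSO (SD over 16 pairs of libraries). It was 0.542 within the group with both agents, 0.491 within DMSO, 0.795 between both agents and nocodazole alone, 0.520 between both agents and the inhibitor alone, 0.595 between the inhibitor alone and DMSO, and 0.798 between nocodazole alone and DMSO. Without replicate 1 the distance of both agents to DMSO was 0.589 and that within the group 0.474.

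**Figure D1:**
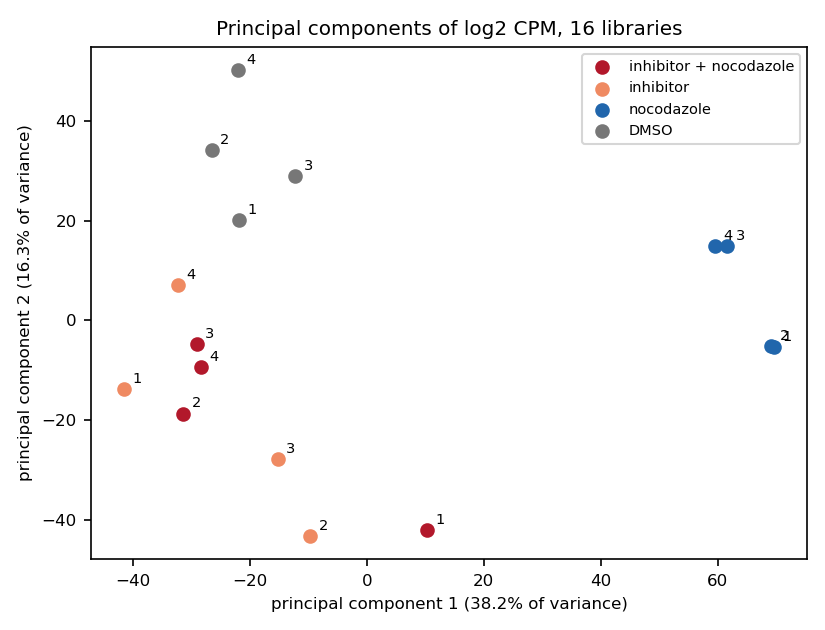
Principal components of log2 CPM over the tested genes, with each point a library and its replicate number beside it. On component 1 (38.2% of the variance) the libraries with nocodazole alone lie at 59.5 to 69.7, replicate 1 with both agents at 10.4, and replicates 2 to 4 between -31.4 and -28.4, outside the DMSO range of -26.5 to -12.2. On component 2 (16.3%) all 4 libraries with both agents lie below 0 and all 4 DMSO libraries above it.

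The change of greatest size was in Jun itself, the main JNK-regulated member of the AP-1 transcription factor family. Jun was at 0.841, 1.38, 1.40 and 1.44 CPM in the 4 libraries with both agents, against 38.9, 56.5, 94.2 and 91.6 CPM in DMSO. The groups lay far apart, and on the log2 scale Jun fell by 5.81 with a standard error (SE) of 0.79 (edgeR adjusted p = 0.000148). The inhibitor alone left a mean of 6.36 CPM, raised by its replicate 4, and nocodazole alone had a mean of 223 CPM. Jund, a family member usually expressed at steady levels, was at 59.5, 44.6, 51.2 and 72.0 CPM with both agents and at 228, 261, 299 and 336 CPM in DMSO, a log2 change of -2.31 ± 0.23 (edgeR adjusted p = 1.42e-05). Creb5, a basic leucine zipper factor related to ATF2, was at 2.84 to 4.10 CPM with both agents and 24.6 to 32.1 CPM in DMSO, a log2 change of -3.03 ± 0.35 (edgeR adjusted p = 3.88e-05). Nocodazole alone raised Creb5 to a mean of 57.2 CPM, so that for all 3 genes the libraries with both agents lay below every DMSO library and not between DMSO and nocodazole alone.

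Atf3, the injury-induced partner of Jun, showed no called difference from DMSO. It was at 5.60, 2.60, 3.13 and 2.71 CPM with both agents and at 2.36, 1.52, 8.48 and 4.65 CPM in DMSO, and the groups overlapped. The log2 change was -0.29 ± 0.39 and was not called (edgeR adjusted p = 0.667). Its 95% interval of -1.12 to 0.54 includes a 2-fold fall. Nocodazole alone had a mean of 181 CPM. The difference between both agents and nocodazole alone was -5.67 (edgeR adjusted p = 3.22e-08). Of 22 AP-1 and ATF factors, 5 were called higher (22.7%) and 3 lower (13.6%) with both agents, beside 8.26% and 8.48% of all tested genes. The lower ones were Jun, Jund and Maf, and the median log2 change was 0.00, beside 0.02 over all tested genes. Against nocodazole alone 2 members were higher and 16 lower with both agents, beside 17.7% and 16.2% of all tested genes.

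The promoter of Jun is shown because its gene changed most. The window carries an AP-1-like element with the letters TGACATCA, known as a site through which Jun and ATF2 act on the gene. The 250 bases before the RefSeq start (GRCm38.p6, chr4:95052223-95052472, minus strand), which differ in build from the one in the submitters' notes, read 5′ to 3′ with the element in capitals:
Jun: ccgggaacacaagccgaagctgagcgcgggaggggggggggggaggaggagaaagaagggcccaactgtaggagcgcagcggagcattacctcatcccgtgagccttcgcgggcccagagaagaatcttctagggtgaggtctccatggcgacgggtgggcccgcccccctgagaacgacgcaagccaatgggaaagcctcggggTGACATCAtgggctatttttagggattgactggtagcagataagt
The element begins 45 bases before the start. On either strand these letters occur in 2.93% of 32851 RefSeq promoter windows of this length, and the canonical AP-1 element TGACTCA in 4.46%. Among the 24 windows of the AP-1 and ATF factors, TGACATCA was found for Jun and Maff.

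The kinase cascade upstream of Jun held more lower than higher calls, none of them as large as 2-fold. Of 34 DLK and JNK pathway genes, 2 were higher (5.88%) and 6 lower (17.6%) with both agents, beside 8.26% and 8.48% of all tested genes, and 2 were higher and 4 lower without replicate 1. Log2 changes over the list ran from -0.52 to 0.48. Map3k12, which encodes DLK, was at 105, 120, 117 and 127 CPM with both agents and 116, 115, 128 and 131 CPM in DMSO, and was not called (log2 change -0.07 ± 0.06, edgeR adjusted p = 0.535). Its level does not report on kinase activity, which was not measured. Tnik, a kinase upstream of JNK, was at 260, 251, 253 and 255 CPM with both agents and 189, 177, 188 and 174 CPM in DMSO, a log2 change of 0.48 ± 0.06 (edgeR adjusted p = 9.63e-05). The libraries of the 2 groups did not overlap, and the inhibitor alone had a mean of 254 CPM. Spry2, a feedback inhibitor of receptor tyrosine kinase signalling, was lower, at a log2 change of -0.52 (edgeR adjusted p = 0.0177), a call lost without DMSO replicate 2 (edgeR adjusted p = 0.0679).

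Several phosphatases that act on MAP kinases fell below the vehicle level. Of 16 DUSP genes tested, 7 were lower (43.8%) and 2 higher (12.5%) with both agents, beside 8.48% and 8.26% of all tested genes. The median log2 change was -0.38, beside 0.02 over all tested genes. Without replicate 1 the counts were 8 lower and 1 higher and the median -0.53. With the inhibitor alone 9 were lower and none higher, beside 7.24% and 5.78% of all tested genes. With nocodazole alone 7 were higher and 3 lower, beside 18.6% and 19.0% of all tested genes. Dusp1, an inducible nuclear phosphatase of JNK and p38, was at 2.14, 0.877, 1.49 and 1.5 CPM with both agents and 8.34, 10.5, 15.3 and 13.1 CPM in DMSO. On the log2 scale Dusp1 fell by 2.95 ± 0.35 (edgeR adjusted p = 4.28e-05), and nocodazole alone had a mean of 97.0 CPM. Dusp8, a neuronal JNK phosphatase, was at 69.3, 61.1, 61.9 and 69.6 CPM with both agents and 150, 154, 181 and 201 CPM in DMSO, a log2 change of -1.39 ± 0.11 (edgeR adjusted p = 1.4e-06). For both genes every library with both agents lay below every DMSO library. Dusp1 is among the 12 largest decreases, whose choice required this. Dusp16, another JNK phosphatase, changed by -2.44 ± 0.24 (edgeR adjusted p = 1.11e-05) and Dusp10, which acts on JNK and p38, by -1.74 ± 0.27 (edgeR adjusted p = 0.000448). Among members with a mean of at least 5 CPM, Dusp18 was the called one of largest increase, at 0.42 (edgeR adjusted p = 0.0104).

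The promoters of Dusp1 and Dusp8 are shown because both hold the palindromic cAMP response element TGACGTCA, a site for ATF2, CREB and Jun-containing dimers, in capitals below. They come from RefSeq on GRCm38.p6, for Dusp1 chr17:26508473-26508722 and for Dusp8 chr7:142095285-142095534, both on the minus strand:
Dusp1: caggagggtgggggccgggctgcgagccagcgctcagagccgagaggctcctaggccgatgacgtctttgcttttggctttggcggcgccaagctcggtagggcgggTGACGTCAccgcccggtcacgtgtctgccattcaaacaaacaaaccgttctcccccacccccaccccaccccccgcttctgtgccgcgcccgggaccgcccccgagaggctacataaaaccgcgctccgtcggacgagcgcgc
Dusp8: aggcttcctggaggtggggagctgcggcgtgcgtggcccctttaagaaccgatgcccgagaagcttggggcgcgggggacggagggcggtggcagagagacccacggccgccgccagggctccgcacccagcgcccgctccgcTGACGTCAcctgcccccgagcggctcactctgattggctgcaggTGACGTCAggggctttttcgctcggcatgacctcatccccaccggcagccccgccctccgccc
Dusp8 holds the element at 2 places and Dusp1 at 1. It was found in these 2 of the 12 DUSP windows in the table, and in 1.55% of all windows. A match describes the letters and does not show that a factor binds there.

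**Figure D2:**
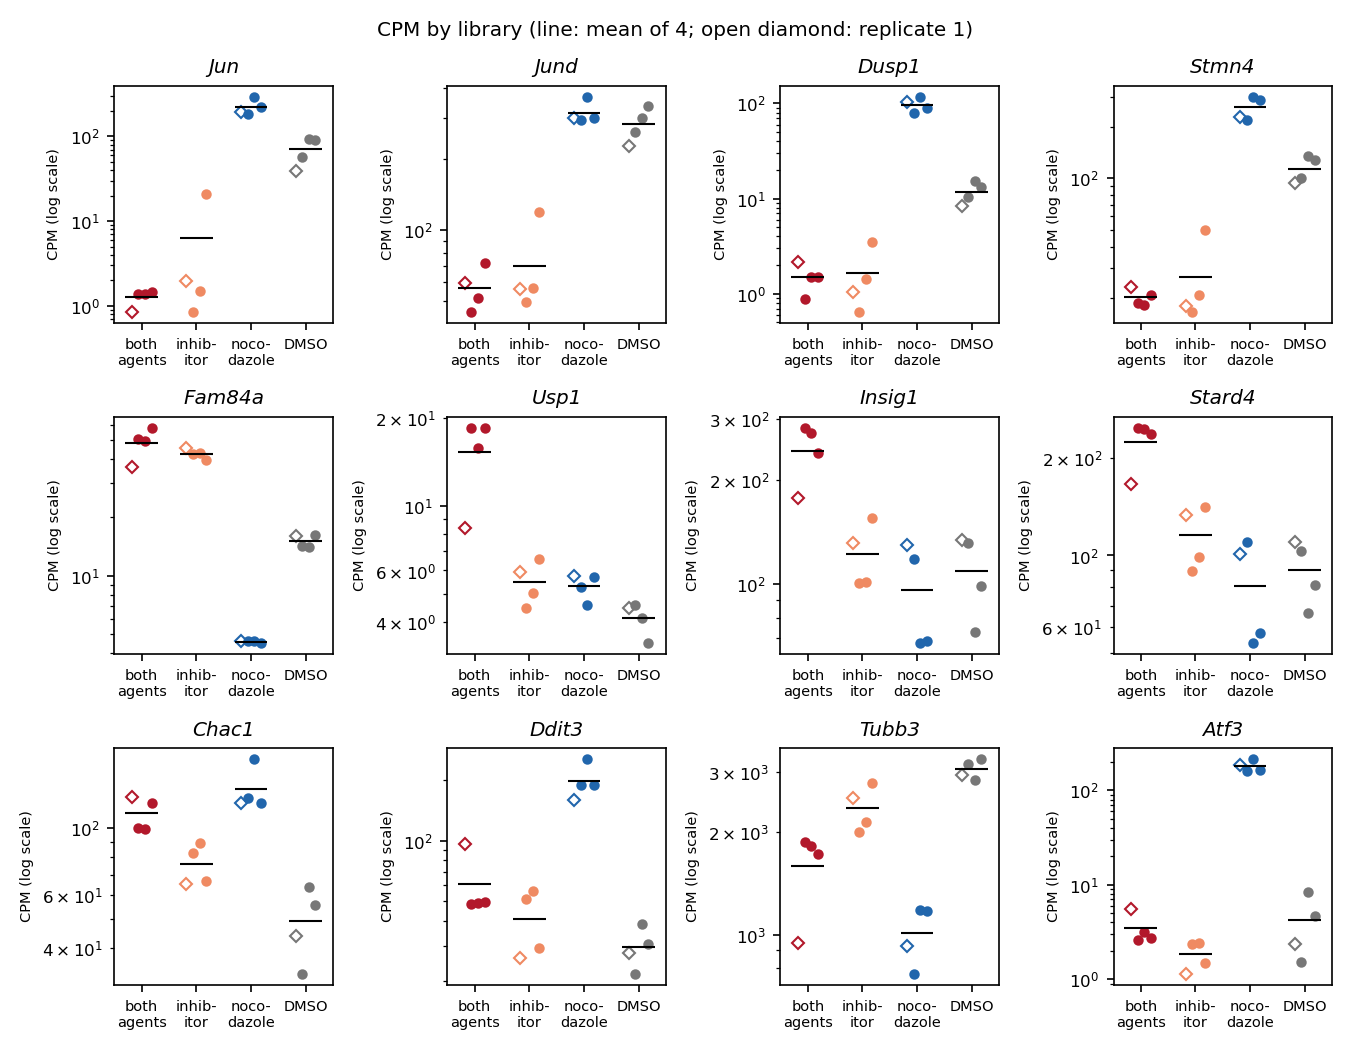
CPM (log axis) of 12 genes in each library, with both agents, inhibitor, nocodazole and DMSO from left to right, the line marking the mean of 4 and the open diamond replicate 1. Jun, Jund, Dusp1 and Stmn4 lie below DMSO with both agents, Fam84a, Usp1, Insig1, Stard4 and Chac1 lie above it, Atf3 overlaps it, and Tubb3 lies between DMSO and nocodazole alone except for replicate 1.

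Other genes among the 12 largest decreases encode surface, matrix and cytoskeletal proteins. Gprc5c, an orphan G protein-coupled receptor, was at 2.09, 0.720, 1.02 and 0.989 CPM with both agents and 11.7, 16.3, 29.7 and 27.8 CPM in DMSO, a log2 change of -4.11 ± 0.45 (edgeR adjusted p = 2.2e-05). Sh2d3c, an adaptor with an SH2 domain, was at 9.71, 10.4, 13.4 and 11.2 CPM with both agents and 70.7, 78.3, 91.7 and 105 CPM in DMSO, a log2 change of -2.95 ± 0.33 (edgeR adjusted p = 2.93e-05). Stmn4, a neuronal stathmin that binds tubulin dimers, was at 23.2, 18.6, 18.2 and 20.8 CPM with both agents and 93.5, 101, 135 and 128 CPM in DMSO, a log2 change of -2.50 ± 0.28 (edgeR adjusted p = 2.66e-05). For each of these genes every library with both agents lay below every DMSO library, which the choice of the 12 required. Gprc5c was highest with both agents in replicate 1. Nocodazole alone had a mean of 259 CPM for Stmn4 and 45.0 CPM for Gprc5c, both above DMSO, and 104 CPM for Sh2d3c. Npy4r, a receptor for pancreatic polypeptide, changed by -2.22 ± 0.30 (edgeR adjusted p = 0.000139).

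Of the 12 decreases, 3 were in genes of the extracellular matrix or of stromal cells. Cd248, which encodes endosialin, was at 1.75, 2.69, 1.55 and 3.48 CPM with both agents and 11.9, 14.0, 23.1 and 28.7 CPM in DMSO. Tnc, the matrix protein tenascin C, was at 1.11 to 3.69 CPM with both agents and 13.4 to 20.9 CPM in DMSO, and Timp3, an inhibitor of metalloproteinases, at 0.865 to 3.2 CPM with both agents and 8.49 to 15.5 CPM in DMSO. Their log2 changes were -3.04 ± 0.49, -2.84 ± 0.47 and -2.84 ± 0.49 (edgeR adjusted p = 0.000635, 0.000701 and 0.00109). The summed fibroblast markers given above overlapped between the groups, and 0 of 17 fibroblast list members were called, with a median log2 change of -0.51. The part of non-neuronal cells in these decreases was not tested. Exons of Timp3 overlap Syn3 on the opposite strand, and Syn3, a synapsin, changed by -0.99 ± 0.21 (edgeR adjusted p = 0.00368). The strand setting of the counts is not given in the sources used here, so reads of the 2 genes cannot be told apart.

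More genes of the regeneration programme were called below the vehicle level than above it. Of 30 such genes tested, 9 were lower (30.0%) and 2 higher (6.67%), beside 8.48% and 8.26% of all tested genes. Their median log2 change was -0.18. With nocodazole alone 13 were higher and 4 lower, beside 18.6% and 19.0% of all tested genes. Gap43, a growth cone protein, was at 586, 720, 726 and 683 CPM with both agents and 968, 1014, 953 and 1029 CPM in DMSO, a log2 change of -0.55 ± 0.11 (edgeR adjusted p = 0.00267). The groups did not overlap, and the mean was 711 CPM with the inhibitor alone. Flrt3, a leucine-rich repeat adhesion protein, changed by -1.25 ± 0.28 (edgeR adjusted p = 0.00586) and was lowest in replicate 1, at 8.19 CPM beside 18.5 to 20.2 CPM in replicates 2 to 4. Gadd45a, a stress gene regulated by p53, was higher at 61.0, 32.5, 33.3 and 33.3 CPM with both agents, against 19.2, 12.6, 22.6 and 16.9 CPM in DMSO. Its log2 change was 1.17 ± 0.25 (edgeR adjusted p = 0.00441), and 0.89 without replicate 1 (edgeR adjusted p = 0.0127).

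Actin and serum response factor targets had 10 of 33 members lower (30.3%) and 0 higher, beside 8.48% and 8.26% of all tested genes. Zyx, which encodes the focal adhesion protein zyxin, was at 32.9, 23.8, 25.6 and 27.9 CPM with both agents and 50.4, 58.7, 71.7 and 77.3 CPM in DMSO. On the log2 scale Zyx fell by 1.23 ± 0.16 (edgeR adjusted p = 0.000102), and nocodazole alone had a mean of 156 CPM. Without replicate 1 the list had 9 lower and 2 higher. Immediate early genes divided evenly, with 5 of 27 higher and 5 lower (18.5% each). Ier5l was lower by -1.27 ± 0.14 (edgeR adjusted p = 2.2e-05), and Ier3 was higher by 1.27 ± 0.32 (edgeR adjusted p = 0.0134).

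Most tubulin mRNAs were below the vehicle level with both agents. Of 15 tubulin genes tested, 11 were lower (73.3%) and 1 higher (6.67%) than in DMSO, beside 8.48% and 8.26% of all tested genes. Their median log2 change was -0.51. Against nocodazole alone 11 were higher with both agents and 0 lower, beside 17.7% and 16.2% of all tested genes, and the median was 0.63. With the inhibitor alone 1 was lower than in DMSO and 0 were higher, beside 7.24% and 5.78% of all tested genes. The median was -0.22. Between both agents and the inhibitor alone 0 were called in either direction, with a median of -0.31. Without replicate 1 with both agents, 0 were called and the median was -0.15. By library, the list's median with the inhibitor alone was -0.13, -0.39, -0.27 and -0.09 relative to the DMSO mean. Tubb3, the neuronal beta tubulin, was at 945, 1876, 1819 and 1724 CPM with both agents and 2955, 3175, 2844 and 3287 CPM in DMSO, a log2 change of -0.95 ± 0.18 (edgeR adjusted p = 0.00226). Replicate 1 lay within the nocodazole-alone range of 766 to 1184 CPM, and replicates 2 to 4 lay between that range and DMSO. Tuba1b, an alpha tubulin, was at 629, 1074, 1062 and 990 CPM with both agents and 1428, 1459, 1347 and 1590 CPM in DMSO, a log2 change of -0.63 ± 0.14 (edgeR adjusted p = 0.0046).

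Leaving out replicate 1 took the tubulin count to 8 lower and 1 higher and the median to -0.35. Tubb3 was then lower by -0.76 (edgeR adjusted p = 0.00148) and Tuba1b by -0.48 (edgeR adjusted p = 0.00267). Tuba1a, the main alpha tubulin of developing neurons, was at 2831, 5714, 5694 and 5149 CPM with both agents and 6643, 7077, 6628 and 7493 CPM in DMSO, and its call was lost without replicate 1 (log2 change -0.52 and edgeR adjusted p = 0.049 with it, -0.33 and edgeR adjusted p = 0.0625 without it) and also without replicate 4 or any 1 DMSO library. The only member called higher was Tube1, epsilon tubulin of the centriole, at 0.68 (edgeR adjusted p = 0.00803). Tubulin genes are close paralogs, and how reads shared between them were counted is not given in the sources used here. Of 9 genes of the tubulin autoregulation machinery, Ttc5, the factor that recognises nascent tubulin, was lower by -0.24 ± 0.05 (edgeR adjusted p = 0.00164) and the other members were not called.

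Most genes of the integrated stress response were higher with both agents than in DMSO. Of 55 ATF4 and stress response genes tested, 38 were higher than in DMSO and 0 were lower, beside 8.26% and 8.48% of all tested genes, and the median log2 change was 0.55. Without replicate 1 the count was 32 higher and 0 lower, with a median of 0.47. With nocodazole alone 53 were higher than in DMSO with a median of 0.78, beside 18.6% of all tested genes. With the inhibitor alone 12 were higher with a median of 0.25, beside 5.78% of all tested genes. Against nocodazole alone 26 members were lower with both agents and 2 higher, beside 16.2% and 17.7% of all tested genes. Against the inhibitor alone 0 were called in either direction, with a median of 0.25. The list's median by library was 0.67, 0.42, 0.46 and 0.55 above the DMSO mean with both agents, and between -0.17 and 0.14 in the DMSO libraries, without overlap.

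Atf4, the central factor of the response, was at 373, 347, 377 and 414 CPM with both agents and 227, 201, 254 and 262 CPM in DMSO, a log2 change of 0.68 ± 0.09 (edgeR adjusted p = 0.000133). Its mean with nocodazole alone was 377 CPM, and the difference of both agents from nocodazole alone had a 95% interval of -0.19 to 0.20 on the log2 scale. Chac1, a glutathione-degrading enzyme, was at 127, 100.4, 99.6 and 121 CPM with both agents and 43.6, 32.7, 63.9 and 55.5 CPM in DMSO. On the log2 scale Chac1 differed by 1.19 ± 0.18 (edgeR adjusted p = 0.000279). Sesn2, which encodes an inhibitor of mTORC1, was at 88.5, 66.1, 69.9 and 72.9 CPM with both agents and 31.5, 24.4, 38.2 and 34.8 CPM in DMSO, a log2 change of 1.20 ± 0.17 (edgeR adjusted p = 0.00018). For Atf4, Chac1 and Sesn2 all 4 libraries with both agents exceeded all 4 DMSO libraries.

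Targets further along the stress pathway were divided. Ddit3, which encodes the pro-apoptotic factor CHOP, was at 96.3, 48.6, 49.1 and 49.8 CPM with both agents and 27.8, 21.7, 38.4 and 30.7 CPM in DMSO. Replicate 1 lay well above the other 3, and the call was lost without it (log2 change 1.04 and edgeR adjusted p = 0.0151 with it, 0.73 and edgeR adjusted p = 0.0537 without it) and without DMSO replicate 2. Stc2, a secreted glycoprotein of the stress response, was at 57.8, 19.4, 21.4 and 21.8 CPM with both agents and 11.1, 5.68, 13.2 and 8.72 CPM in DMSO, a log2 change of 1.63 ± 0.39 (edgeR adjusted p = 0.00926), and 1.10 without replicate 1 (edgeR adjusted p = 0.0324). Bbc3, the pro-apoptotic gene also called Puma, was at 47.8, 34.4, 40.3 and 43.5 CPM with both agents and 30.5, 28.2, 48.1 and 45.8 CPM in DMSO, and the groups overlapped. Its log2 change was 0.12 ± 0.17 (edgeR adjusted p = 0.687), beside a mean of 147 CPM with nocodazole alone. Of 34 p53 target and cell death genes, 7 were higher (20.6%) and 4 lower (11.8%) with both agents, beside 8.26% and 8.48% of all tested genes. Among them were Trp53inp1, a p53-induced gene, at 1.36 ± 0.17 (edgeR adjusted p = 6.56e-05) and the survival gene Bcl2 at -0.75 ± 0.19 (edgeR adjusted p = 0.0131). Hmox1, heme oxygenase, was higher by 1.41 ± 0.20 (edgeR adjusted p = 0.000195), while 2 of 30 NRF2 and heat shock genes in all were higher and 3 lower. The endoplasmic reticulum unfolded protein response had 8 of 27 higher (29.6%) and 4 lower (14.8%), with Herpud1, a component of protein degradation at that membrane, at 0.85 ± 0.14 (edgeR adjusted p = 0.000625).

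Promoters of 3 of the higher genes are shown because they hold the composite element of ATF4, TGATGNAA, in capitals on whichever strand it lies (on the other strand it reads TTGCATCA here). They are RefSeq windows on GRCm38.p6, Chac1 at chr2:119350992-119351241 (plus strand), Herpud1 at chr8:94386179-94386428 (plus strand) and Slc7a11, the cystine transporter gene, at chr3:50443614-50443863 (minus strand):
Chac1: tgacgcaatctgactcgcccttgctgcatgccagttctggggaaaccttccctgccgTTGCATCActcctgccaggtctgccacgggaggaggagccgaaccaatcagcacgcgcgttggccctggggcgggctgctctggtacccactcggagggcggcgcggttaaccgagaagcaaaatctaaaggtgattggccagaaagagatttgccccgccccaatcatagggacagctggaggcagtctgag
Herpud1: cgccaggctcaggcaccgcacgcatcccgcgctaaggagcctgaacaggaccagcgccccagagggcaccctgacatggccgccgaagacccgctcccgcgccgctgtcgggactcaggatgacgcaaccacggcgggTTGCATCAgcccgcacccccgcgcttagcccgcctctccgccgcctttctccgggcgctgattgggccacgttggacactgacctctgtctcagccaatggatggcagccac
Slc7a11: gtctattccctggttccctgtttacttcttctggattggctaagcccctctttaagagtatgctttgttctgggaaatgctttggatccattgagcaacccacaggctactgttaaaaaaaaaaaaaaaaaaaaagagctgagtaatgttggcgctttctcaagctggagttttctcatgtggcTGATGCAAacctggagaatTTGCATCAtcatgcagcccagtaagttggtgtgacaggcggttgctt
The element stood in 14 of 56 windows of the stress response list (25.0%), in 10 of 37 windows of its members called higher (27.0%), and in 3.45% of all windows. Slc7a11, which holds it at 2 places, was higher by 0.62 ± 0.13 (edgeR adjusted p = 0.00372). The list was assembled partly from genes known to be ATF4 targets, so the share describes the list.

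Most cholesterol synthesis genes were higher with both agents than in DMSO, and few were called with either agent alone. Of 27 such genes tested, 18 were higher than in DMSO (66.7%) and 0 were lower, beside 8.26% and 8.48% of all tested genes. The median log2 change was 0.50. Without replicate 1 the count was 22 higher and 0 lower, with a median of 0.64. The inhibitor alone gave 1 higher and 1 lower with a median of 0.02, beside 5.78% and 7.24% of all tested genes. Nocodazole alone gave 1 higher and 3 lower with a median of -0.13, beside 18.6% and 19.0% of all tested genes. The difference from nocodazole alone was called for 22 higher and 1 lower, beside 17.7% and 16.2% of all tested genes. The difference from the inhibitor alone was called for 0 members with all 4 libraries (median 0.49) and for 11 higher without replicate 1 (median 0.66). Replicate 1 had a list median of 0.12 above the DMSO mean, within the DMSO range of -0.25 to 0.17, whereas replicates 2 to 4 had 0.73, 0.70 and 0.56.

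Stard4, a sterol transfer protein, was at 167, 248, 245 and 238 CPM with both agents and 110.3, 103, 66.6 and 80.9 CPM in DMSO, a log2 change of 1.31 ± 0.23 (edgeR adjusted p = 0.0012). Insig1, the sterol sensor that holds SREBP precursors in the endoplasmic reticulum, was at 178, 284, 273 and 240 CPM with both agents and 134, 131, 72.6 and 98.7 CPM in DMSO, a log2 change of 1.16 ± 0.24 (edgeR adjusted p = 0.00345). Neither gene overlapped between groups, and replicate 1 was the lowest library with both agents for each. Sc5d, a sterol desaturase late in the pathway, had the lowest adjusted p of the list, with a log2 change of 0.91 ± 0.11 (edgeR adjusted p = 3.51e-05). Scd1, a fatty acid desaturase, was higher by 1.20 ± 0.23 (edgeR adjusted p = 0.0018). Hmgcs1, at 0.27 ± 0.15, and Srebf2, which encodes the pathway's activator, were among the 9 members not called. A sterol regulatory element spelled TCACNCCAC was found in 1 of 20 windows of the list, that of Hmgcs1, and in 1.05% of all windows.

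**Figure D3:**
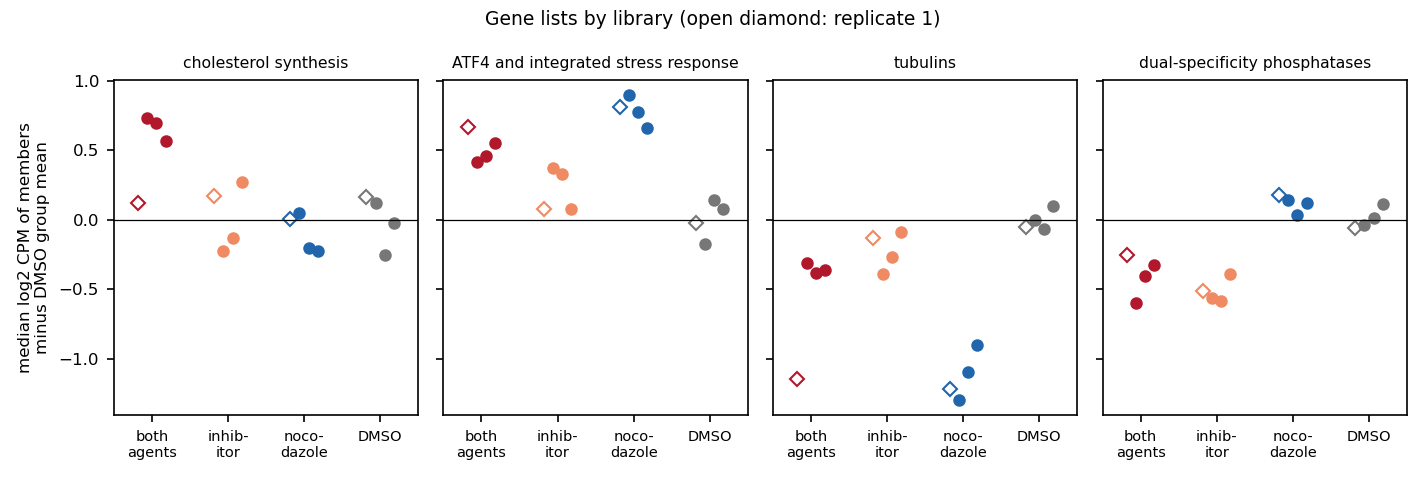
Median over the members of 4 gene lists of log2 CPM minus the mean of the DMSO libraries, by library, with both agents, inhibitor, nocodazole and DMSO from left to right and replicate 1 as an open diamond. For tubulins, replicate 1 with both agents is at -1.15, among the nocodazole libraries, and for cholesterol synthesis it is at 0.12, among the DMSO libraries.

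**Figure D4:**
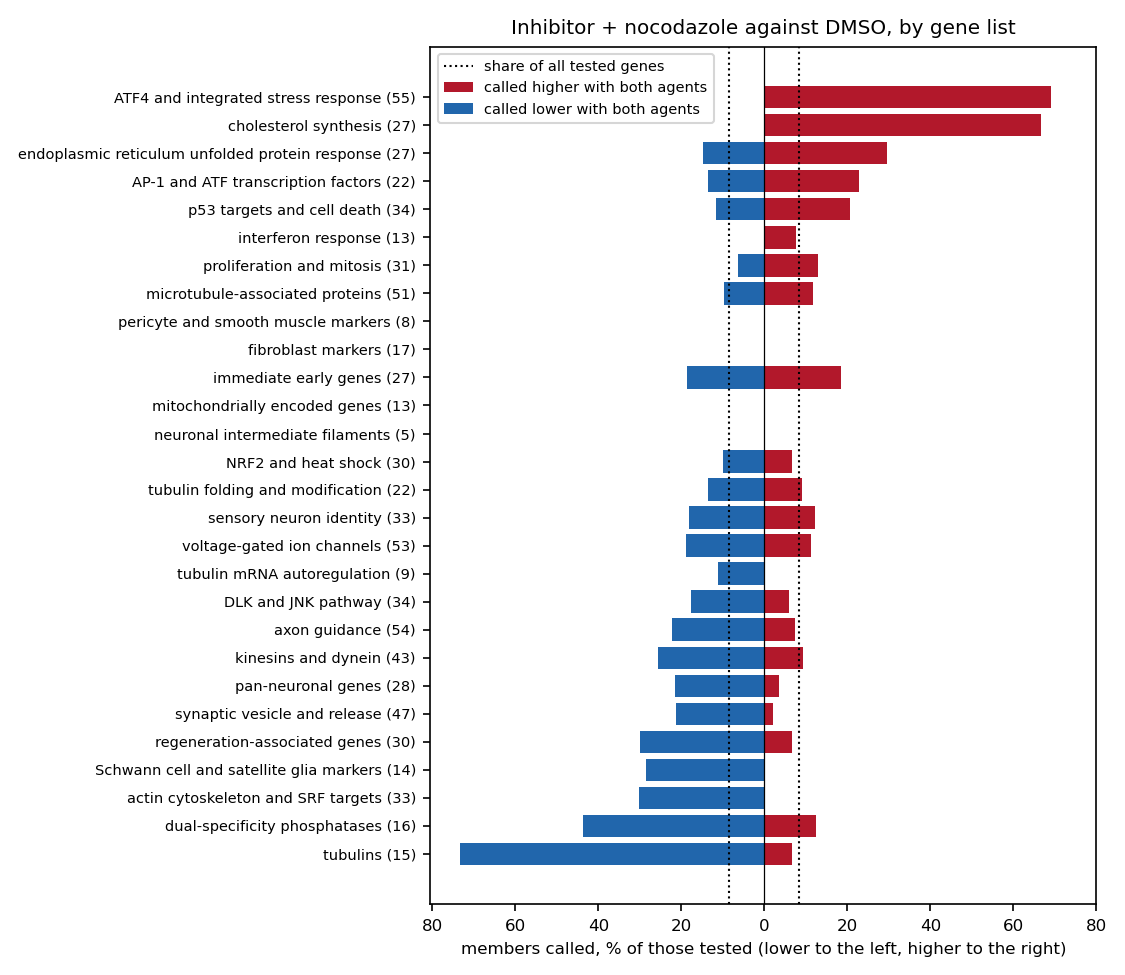
Share of each list's tested members called lower (left) and higher (right) with both agents than in DMSO, with the number tested in brackets and dotted lines at 8.26% higher and 8.48% lower, the shares over all tested genes. The stress response and cholesterol lists extend farthest to the right, and tubulins and dual-specificity phosphatases farthest to the left.

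The 12 largest increases ranged from 1.54 to 2.28 on the log2 scale and came from varied functions. Rassf2, a Ras-association domain protein, was at 17.97, 26.3, 17.4 and 38.5 CPM with both agents and 5.04, 4.60, 5.83 and 5.09 CPM in DMSO, a log2 change of 2.28 ± 0.32 (edgeR adjusted p = 0.000178). Per3, a period gene of the circadian clock, was at 14.7, 17.0, 13.5 and 13.9 CPM with both agents and 4.17, 4.13, 3.36 and 3.54 CPM in DMSO, a log2 change of 1.96 ± 0.12 (edgeR adjusted p = 2.28e-07). Usp1, a deubiquitinase of the DNA damage response, was at 8.36, 18.5, 15.8 and 18.4 CPM with both agents and 4.48, 4.57, 4.12 and 3.38 CPM in DMSO, a log2 change of 1.88 ± 0.21 (edgeR adjusted p = 2.55e-05). None of the 3 overlapped with DMSO, which the choice of the 12 required, and Usp1 was lowest in replicate 1.

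Fam84a was higher than DMSO with both agents and lower than DMSO with nocodazole alone. It was at 36.3, 50.5, 49.3 and 58.02 CPM with both agents and 16.0, 14.3, 14.0 and 16.2 CPM in DMSO, a log2 change of 1.68 ± 0.11 (edgeR adjusted p = 2.28e-07). Nocodazole alone had a mean of 4.58 CPM and the inhibitor alone 42.7 CPM, and both agents differed from nocodazole alone by 3.40 (edgeR adjusted p = 1.95e-11). Siah3, of the SIAH ubiquitin ligase family, was at 9.23, 9.08, 7.94 and 8.45 CPM with both agents and 2.89, 3.02, 2.65 and 2.82 CPM in DMSO, with a mean of 1.94 CPM with nocodazole alone. The log2 change was 1.61 ± 0.18 (edgeR adjusted p = 3.01e-05). Kctd12, an auxiliary subunit of GABA-B receptors, changed by 1.61 ± 0.15 (edgeR adjusted p = 8.92e-06), Arhgef3, a guanine nucleotide exchange factor, by 1.72 ± 0.23 (edgeR adjusted p = 0.000142), and Trim66, a chromatin reader, by 1.65 ± 0.23 (edgeR adjusted p = 0.000214). Panct2, Tlcd1 and Myo16 completed the 12 together with Stc2, at 1.89, 1.56 and 1.54.

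Values of the 2 steps are given side by side for these genes, which were chosen on their sum. Among the 12 largest decreases the inhibitor alone changed expression by -3.43 to -1.56 against DMSO, and adding nocodazole to the inhibitor by a further -2.38 to -0.14. All 12 were called for the inhibitor alone and 0 for the added nocodazole. For each of the 12, replicate 4 was the highest library with the inhibitor alone. It raised that group's mean and with it the size of the added step. Jun was at 21.2 CPM there, beside 0.843 to 1.96 CPM in the other inhibitor libraries and 0.841 to 1.44 CPM with both agents. Among the 12 largest increases the inhibitor's change was 0.41 to 1.5 and that of added nocodazole 0.18 to 1.48. Of these, 9 were called for the inhibitor alone and 3, Per3, Usp1 and Myo16, for the added nocodazole. Without replicate 1 with both agents, 5 were called for the added nocodazole, the further 2 being Rassf2 at 1.61 (edgeR adjusted p = 0.026) and Tlcd1 at 1.03 (edgeR adjusted p = 0.00249), while 0 of the 12 decreases were.

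**Figure D5:**
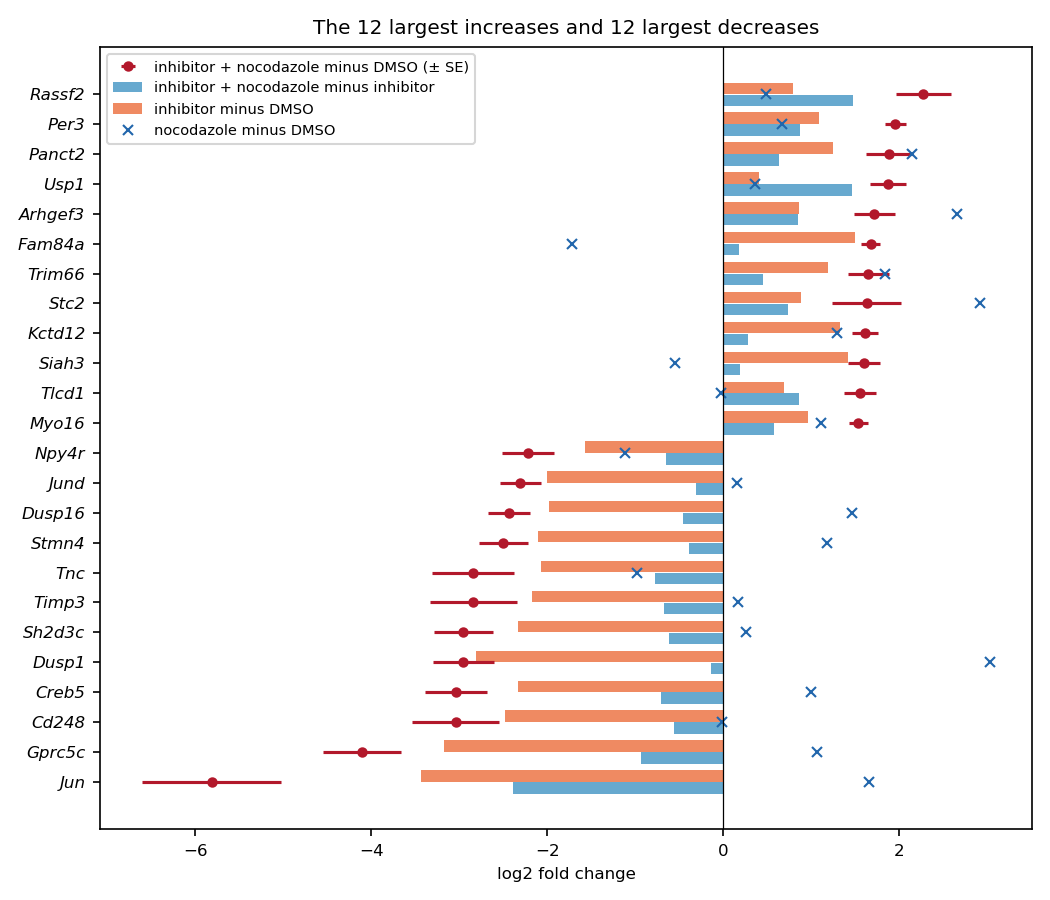
Log2 fold changes of the 12 largest increases and 12 largest decreases, with the point and bar giving both agents against DMSO with its SE, the bars its 2 additive steps, and crosses nocodazole alone against DMSO. For Jun the steps were -3.43 and -2.38 on the log2 scale, and for Usp1 0.41 and 1.47, in the order inhibitor, then added nocodazole. The Jun steps include inhibitor replicate 4 at 21.2 CPM, beside 0.843 to 1.96 CPM in the other inhibitor libraries.

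The nocodazole step within the inhibitor called 16 genes, and 1146 (5.98%) had an unadjusted p below 0.05 by the same edgeR test. Without replicate 1 with both agents it called 83 higher (0.426%) and 5 lower (0.0257%), and DESeq2 called 118 higher and 9 lower. Erg28, known in yeast as a scaffold of sterol synthesis enzymes, was at 40.7, 48.6, 46.2 and 42.6 CPM with both agents, 22.5, 22.7, 21.9 and 24.3 CPM with the inhibitor alone, and 19.7, 17.5, 15.9 and 16.0 CPM in DMSO. Its log2 change from the inhibitor alone was 0.96 (edgeR adjusted p = 0.00644). Lpin1, a phosphatidate phosphatase of lipid metabolism, was at 66.8, 77.7, 68.1 and 84.8 CPM with both agents, 42.8, 37.3, 37.0 and 43.5 CPM with the inhibitor alone and 41.6, 43.7, 39.1 and 39.6 CPM in DMSO. Its log2 change from the inhibitor alone was 0.89 (edgeR adjusted p = 0.00725). For both genes the libraries with both agents lay above those with the inhibitor alone and those in DMSO. Nocodazole alone had a mean of 27.5 CPM for Erg28. For Lpin1 its mean was 91.9 CPM, above the mean of 74.3 CPM with both agents.

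Usp1 had the largest difference from the inhibitor alone, at 1.47 (edgeR adjusted p = 0.00725). Per3 and Ciart, both of the circadian clock, were higher by 0.87 and 0.78, Xbp1, a factor of the unfolded protein response, by 0.33, and Nfe2l1, which drives proteasome gene expression, by 0.33. Ifrd1, Borcs6, Myo16, Siah2, Esyt2, Kdm4a, Sgtb and Capn10 were the other genes that were higher, by 0.31 to 0.71. Nocodazole alone had a higher mean than both agents for Ciart (11.8 against 9.29 CPM), Ifrd1 (84.9 against 50.9 CPM) and Xbp1 (65.5 against 48.7 CPM). The same held for Siah2 (34.1 against 32.7 CPM) and Sgtb (73.7 against 64.9 CPM). For the other genes of this paragraph that were higher, nocodazole alone had the lower mean. Rusc1 was the gene that was lower, by -0.33 (edgeR adjusted p = 0.0456).

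Genes of neuronal function changed in both directions, with more members lower than higher. Of 53 voltage-gated ion channel genes, 6 were higher (11.3%) and 10 lower (18.9%) with both agents, beside 8.26% and 8.48% of all tested genes, and 7 were higher and 11 lower without replicate 1. Log2 changes over the list ran from -1.07 to 1.32. Nocodazole alone gave 4 higher and 36 lower, beside 18.6% and 19.0% of all tested genes. Scn10a, the nociceptor sodium channel, was at 1030 to 1190 CPM with both agents and 1590 to 1740 CPM in DMSO, a log2 change of -0.58 (edgeR adjusted p = 1.79e-05). Cacna1e, a calcium channel subunit, was at 235, 155, 134 and 136 CPM with both agents and 87.1, 85.0, 84.6 and 64.0 CPM in DMSO, a log2 change of 1.04 ± 0.20 (edgeR adjusted p = 0.00199). Kcnab1, a potassium channel beta subunit, was at 42.3, 23.9, 25.7 and 25.0 CPM with both agents and 56.4, 56.9, 54.1 and 59.0 CPM in DMSO, a log2 change of -0.95 ± 0.15 (edgeR adjusted p = 0.000635). All 3 genes were apart from DMSO in every library, Kcnab1 least so in replicate 1.

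Of 33 sensory identity genes, 4 were higher (12.1%) and 6 lower (18.2%), beside 8.26% and 8.48% of all tested genes. Nocodazole alone gave 2 higher and 16 lower, beside 18.6% and 19.0% of all tested genes. Runx1, a nociceptor transcription factor, was higher by 1.15 ± 0.18 (edgeR adjusted p = 0.00051). Gfra3, the artemin receptor, was lower by -0.73 ± 0.23 (edgeR adjusted p = 0.0422), a call that was lost on leaving out any 1 of the 8 libraries and with the replicate number as a block (edgeR adjusted p up to 0.107, and 0.0967 without replicate 1 with both agents). Synaptic vesicle genes had 1 of 47 higher, Syt1, the calcium sensor of release, at 0.25 ± 0.06 (edgeR adjusted p = 0.00555), and 10 lower (21.3%), with 7 lower without replicate 1. Axon guidance genes had 4 of 54 higher and 12 lower (22.2%), with 10 lower without replicate 1. Unc5b, a netrin receptor, was highest in replicate 1, at 54.8 CPM beside 13.2 to 15.8 CPM in replicates 2 to 4 and 7.12 to 11.0 CPM in DMSO. Its log2 change was 1.53 (edgeR adjusted p = 0.0291) with that library and 0.78 (edgeR adjusted p = 0.155) without it, and the call was also lost without DMSO replicate 1, 2 or 4.

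Transport and cytoskeletal lists also held calls in both directions. Of 43 kinesin and dynein genes, 4 were higher (9.3%) and 11 lower (25.6%), beside 8.26% and 8.48% of all tested genes. Without replicate 1 there were 4 higher and 6 lower. Dynll1, a dynein light chain, was at 99.7, 121, 123 and 131 CPM with both agents and 169, 173, 169 and 178 CPM in DMSO, a log2 change of -0.54 ± 0.09 (edgeR adjusted p = 0.000788). The kinesin gene Kif21b was called higher at 1.84 (edgeR adjusted p = 0.0251), but without replicate 1, which had 125 CPM beside 30.0 to 51.9 CPM in the others, it was not (1.18, edgeR adjusted p = 0.108), nor was it without DMSO replicate 1, 2 or 4. Microtubule-associated proteins had 6 of 51 higher (11.8%) and 5 lower (9.8%), and 4 higher and 3 lower without replicate 1, of which 4 and 2 were called in both fits. Enzymes of tubulin folding and modification had 2 of 22 higher (9.09%) and 3 lower (13.6%). Among them were the glutamylase Ttll5 at 0.49 ± 0.08 (edgeR adjusted p = 0.000508) and the deglutamylase Agbl5 at -0.44 ± 0.10 (edgeR adjusted p = 0.00747). None of 5 neuronal intermediate filament genes was called, and of 28 pan-neuronal genes 1 was higher and 6 were lower (21.4%), against 0 higher and 4 lower without replicate 1. The higher one was Chgb, a secretory granule protein, at 0.23 ± 0.07 (edgeR adjusted p = 0.0412), whose groups overlapped and whose call was lost in 9 alternatives (edgeR adjusted p up to 0.154).

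Among marker lists of other cells, the glial one held the called decreases. Schwann cell and satellite glia markers had 4 of 14 lower (28.6%, beside 8.48% of all tested genes), Gfra3, Pmp22, Cnp and Mbp, and 0 higher. Without replicate 1 there were 3 lower and 1 higher, and the calls of Cnp and Mbp were the 2 shared by both fits. S100b, which gave nearly all of the summed glial CPM above, was at 22.8 to 85.4 CPM with both agents and 85.7 to 105 CPM in DMSO, and was not called (log2 change -0.53, edgeR adjusted p = 0.374). Fibroblast, pericyte, endothelial and macrophage lists had 0 calls by edgeR among 17, 8, 3 and 3 tested members. Proliferation genes had 4 of 31 higher (12.9%) and 2 lower (6.45%), beside 8.26% and 8.48% of all tested genes. Without replicate 1 there were 3 higher and 1 lower. Malat1, a nuclear noncoding RNA, was at 11370, 10720, 8957 and 9202 CPM with both agents and 8124, 7367, 8398 and 6161 CPM in DMSO, a log2 change of 0.42 ± 0.11 (edgeR adjusted p = 0.0164), a call lost in 3 alternatives (edgeR adjusted p up to 0.0563). Its part, and that of the mitochondrial share, in the other differences was not tested.

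Exons of 23 of the 65 genes named by the rule overlap those of another gene, among them Jun (Junos), Jund (Gm11175), Dusp1 (Ergic1), Dusp8 (Gm32786), Ddit3 (Mars), Tlcd1 (Rpl23a), Map3k12 (Pcbp2) and Malat1 (Gm37376), all on opposite strands, so reads of each pair may be mixed in the counts.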

How the data were processed

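RNA was measured in cultured embryonic mouse dorsal root ganglion neurons. Per the labels' protocols, ribosomal RNA was removed with Kapa RiboErase before library preparation. The authors deposited whole-number counts in a table by Ensembl gene for all 16 libraries. The submitters' processing notes name STAR, Salmon and GRCm39, and which tool made the counts, the versions and the strand setting are not given in the sources used here. Symbols were taken from GENCODE M21 (94.1% of 55356 identifiers matched). Promoters came from RefSeq on GRCm38.p6, matched by symbol, and for 5 of the 6 printed the bases after the start were found at the start of a GENCODE transcript.

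Total counts, which set the precision, were 32188174 to 43321421 in the 8 libraries, and the median SE of a log2 change over genes was 0.144. Over 12 pairs of replicates within the 2 groups, counts differed with a chi-square of 7.52 to 45.9 per degree of freedom, so none was a copy of another. Counts of all 16 libraries were fitted in R 4.3.3 with limma 3.58.1 and edgeR 4.0.16, using TMM scaling, the filterByExpr rule on low counts (19156 genes kept), 1 mean per group and a quasi-likelihood test. P-values were adjusted over all tested genes and called below 0.05. CPM used scaled library sizes, and log2 CPM a prior count of 2. The procedure was tested on simulated counts of 18315 genes: for both agents against DMSO it recovered 88% of 100 genes changed by 1 and 54% of 100 changed by 0.5 on the log2 scale, with 6 false calls. The changed genes were drawn from those above 1 CPM in DMSO, and no simulated library stood apart from its group. Recovery for genes of lower counts, or with such a library, was not tested.

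Replicate numbers were not used as pairs in the main fit. Between both agents and DMSO, deviations of the same number correlated at -0.13 to 0.22, and 1 of 4 matched its own number best. With 4 libraries in each group this cannot exclude a shared culture or batch, and the other groups were not examined for it. The members and gene lists were chosen with earlier results of these data known, so lists carry no test. The rule named the 12 largest increases and 12 largest decreases among genes called with and without replicate 1, with a mean of at least 5 CPM and groups that did not overlap. It also named the called member of largest change in each direction of each list, again with a mean of at least 5 CPM, and a fixed core of genes. Other list members given as examples, the 16 genes that differed from the inhibitor alone and the promoters printed were picked after their values were seen. Alternatives were DESeq2 1.42.0, other filters and scaling, the replicate block, and leaving out each library.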

Additional observations from a re-analysis of the deposited data

Results flagged for a closer look

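Among 190 sets of 4 values examined (named genes and list medians in each group), 19 held a library far from the other 3, where chance flags about 1 in 20 sets. Of these, 15 lay in replicate 1 with both agents. There Unc5b (54.8 CPM, against 13.2 to 15.8 in replicates 2 to 4), Stc2 (57.75 CPM, against 19.4 to 21.8), Ddit3 (96.27 CPM, against 48.6 to 49.8), Kcnab1 (42.33 CPM, against 23.9 to 25.7), Gadd45a (61.0 CPM, against 32.5 to 33.3) and Bcl2 (8.192 CPM, against 4.39 to 4.93) were highest. Stard4 (166.7 CPM, against 238 to 248), Flrt3 (8.192 CPM, against 18.5 to 20.2), Jun (0.8409 CPM, against 1.38 to 1.44) and Tubb3 (944.8 CPM, against 1724 to 1876) were lowest there. The same library was lowest for the list medians, relative to DMSO, of tubulins (-1.146), microtubule-associated proteins (-0.145), kinesins and dynein (-0.183), sensory identity genes (-0.563) and pan-neuronal genes (-0.341). Its tubulin values lay in the range of nocodazole alone while its Jun value lay with its own group, and the cause was not tested. Replicate 3 with both agents had the highest medians of the endoplasmic reticulum unfolded protein response (0.062) and of Schwann cell and satellite glia markers (-0.147). In DMSO, replicate 4 was lowest for Cacna1e (63.96 CPM, against 84.6 to 87.1) and highest for the DLK and JNK pathway median (0.036).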

How the results depend on the processing

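Leaving out a library gave 1020 (without DMSO replicate 2) to 1314 genes higher and 1023 (without DMSO replicate 4) to 1683 lower with both agents than in DMSO, and 79 (without DMSO replicate 4) to 129 list members lower, beside 120 with all libraries. Requiring a mean of at least 1 CPM left 165 genes at least 2-fold higher and 143 lower. Both agents against the inhibitor alone was the comparison most dependent on the setting, with 3 to 83 genes higher and 0 to 5 lower when a library was left out, 83 and 5 being without replicate 1 with both agents. DESeq2 gave 118 higher and 9 lower there, no filter on low counts 28 and 0, the replicate block 5 and 0, and leaving out mitochondrially encoded genes 9 higher. For the inhibitor alone against DMSO, leaving out a library gave 490 to 1448 higher and 752 to 1639 lower, the highest of both without inhibitor replicate 4, and no filter gave 646 higher. The distance of both agents from DMSO was 0.3063 over the 5000 genes of highest mean and 0.7256 with a prior count of 0.5. The cause of these shifts was not tested. Of 975 values of the 65 named genes for both agents against DMSO, 927 kept direction and call, 0 reversed and 48 lost the call, in Chgb, Ddit3, Gfra3, Kif21b, Malat1, Spry2, Tacc2, Tuba1a and Unc5b. At this depth and spread the 95% intervals of 76.5% of genes lay within 2-fold either way, and smaller differences may have been missed.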

Other observations

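Some immediate early genes were lower than vehicle mainly in replicates 2 to 4 with both agents. They were chosen after their values were seen. Vgf, a secreted neuropeptide precursor, was at 254, 76.7, 97.2 and 77.0 CPM with both agents and 317, 335, 214 and 266 CPM in DMSO, and nocodazole alone had a mean of 834 CPM. Replicate 1 lay inside the DMSO range and the other 3 libraries below it. The log2 change was -1.16 with all libraries (edgeR adjusted p = 0.0288) and -1.76 without replicate 1 (edgeR adjusted p = 0.000249). Btg2, an antiproliferative target of p53, was at 2.76, 0.595, 0.745 and 1.10 CPM with both agents and 1.99, 2.67, 4.72 and 4.75 CPM in DMSO. Dusp6, the ERK phosphatase, was not called with all libraries (-1.08, edgeR adjusted p = 0.156) and was called without replicate 1 (-1.73, edgeR adjusted p = 0.0276).

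Of 13 interferon response genes tested, 1 was called higher with both agents, a share near that of all tested genes (7.69% beside 8.26%). That gene was Stat2. It was at 158, 256, 239 and 248 CPM with both agents and 163, 155, 140 and 156 CPM in DMSO, with replicate 1 inside the DMSO range. The log2 change was 0.55 ± 0.12 (edgeR adjusted p = 0.00602), beside a mean of 93.1 CPM with nocodazole alone. None of the 13 mitochondrially encoded genes was called, and their changes were 0.15 to 0.44 with a median of 0.21, or 0.04 without replicate 1.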
